A study of Mus musculus with 8 samples.

Results

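The DNA replication and S phase genes described here are 48 genes whose products license, unwind, copy and repackage DNA, supply its building blocks, or start and guard S phase. They were chosen by symbol, with earlier results of these data known, and 48 of 48 were listed in the day 5 expression table, which holds 12417 genes. All 48 also passed the filter on low values, a mean of at least 1 TPM, which left 10238 genes to be tested. TPM is a level scaled by transcript length and by the total of the library, so each value is a share of its library. A change in abundant transcripts shifts the shares of all others, which limits comparisons between libraries.

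The study asked how the IL-33 receptor ST2, encoded by Il1rl1, acts in donor CD4+ T cells during graft-versus-host disease, and the 8 libraries were made from CD4+ T cells of spleen on day 5 after transplant into lethally irradiated allogeneic BALB/c recipients. The ST2fl/fl group (n = 4) held CD45.2+ cells of C57BL/6 (B6) donors with CD4-Cre, the R26-LSL-YFP reporter and the floxed St2 alleles, so that Cre expressed under Cd4 sequences removes St2 from the T cell lineage. The ST2WT group (n = 4) held CD45.1+ B6 cells with St2+/+, for which no Cre or reporter is listed. Both populations were transferred together into each recipient and sorted apart afterwards. Libraries that share a number from 1 to 4 were taken to share a recipient, which the labels do not state. The groups therefore saw the same host, but they differ in the CD45 allele, Cre and reporter as well as in St2, and these cannot be told apart from each other. Donor mice were young adults, and all the cells compared here came from irradiated allogeneic hosts; syngeneic controls were not analysed here. Unless a replicate block is named, the p-values measure the spread between the 4 libraries within each genotype and ignore the pairing by recipient.

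Before a cell copies its DNA, the origin recognition complex, Cdc6 and Cdt1 load the MCM helicase onto origins in G1, a step called licensing. At the start of S phase Cdc45 and the GINS complex join MCM, the helicase opens the duplex, and primase, the polymerases, the sliding clamp and the ligase copy each strand while ribonucleotide reductase and its partner enzymes supply deoxynucleotides. Many of these genes are transcribed together in late G1 by E2F factors once cyclin-dependent kinases have inactivated the retinoblastoma protein. Naive T cells rest in G0 and express little of this machinery, whereas activated T cells divide several times a day, and donor T cells that meet host alloantigen expand in the spleen in the first days after transfer.

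A feature that the choice of genes did not use is the sequence before their transcription starts. RefSeq promoter windows on GRCm38.p6, from 250 bases before to 50 bases after the start, were at hand for 41 of the 48 genes, and 15 of these (36.6%) held the E2F core TTTNNCGC on either strand, where N is any base. The same letters were found in 9.5% of the 7611 windows of tested genes and in 5.3% of all 27025 windows. There were 21 matches in the 15 genes, with 7 of the form TTTCCCGC, 7 of TTTGGCGC and 5 of TTTCGCGC. A stretch that matches on both strands, as in Mcm6, counts as 2 overlapping matches. The windows below are those of the 4 genes with a match that had the smallest p-values, and of Mcm6, which had the most matches (3); each is printed 5′ to 3′ on the strand of its gene with the matches in capitals. In Orc1 and Gins3 the match begins 27 and 41 bases before the start, in Cdc6 138 bases before it, in Mcm6 110, 106 and 47 bases before it, and in Mcm3 at bases 20 and 39 of the transcript.
Cdc6 (chr11:98907901-98908200, plus strand): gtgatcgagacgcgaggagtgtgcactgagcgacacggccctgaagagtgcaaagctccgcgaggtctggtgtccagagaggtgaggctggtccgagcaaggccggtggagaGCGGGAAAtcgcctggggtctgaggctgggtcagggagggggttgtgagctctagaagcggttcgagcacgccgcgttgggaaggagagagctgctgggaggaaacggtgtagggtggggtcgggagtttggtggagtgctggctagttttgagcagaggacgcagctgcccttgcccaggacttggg
Orc1 (chr4:108579204-108579503, plus strand): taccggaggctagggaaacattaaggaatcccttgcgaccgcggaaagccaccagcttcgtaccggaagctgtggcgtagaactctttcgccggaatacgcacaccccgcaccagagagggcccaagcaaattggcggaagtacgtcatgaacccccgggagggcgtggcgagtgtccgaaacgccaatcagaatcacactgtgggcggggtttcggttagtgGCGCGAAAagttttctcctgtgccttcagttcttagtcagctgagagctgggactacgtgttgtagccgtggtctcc
Gins3 (chr8:95633309-95633608, plus strand): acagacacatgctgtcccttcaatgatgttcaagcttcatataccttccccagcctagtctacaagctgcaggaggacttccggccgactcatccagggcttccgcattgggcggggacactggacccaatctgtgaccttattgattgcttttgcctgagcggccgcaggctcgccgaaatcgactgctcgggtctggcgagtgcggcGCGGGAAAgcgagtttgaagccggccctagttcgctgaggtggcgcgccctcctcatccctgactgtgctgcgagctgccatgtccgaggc
Mcm3 (chr1:20820263-20820562, minus strand): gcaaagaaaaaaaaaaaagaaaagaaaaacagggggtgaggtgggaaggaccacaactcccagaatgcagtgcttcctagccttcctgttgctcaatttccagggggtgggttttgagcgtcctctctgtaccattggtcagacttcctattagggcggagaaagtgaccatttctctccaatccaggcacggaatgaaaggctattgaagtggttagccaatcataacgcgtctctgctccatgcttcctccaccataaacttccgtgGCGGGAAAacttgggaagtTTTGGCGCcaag
Mcm6 (chr1:128359656-128359955, minus strand): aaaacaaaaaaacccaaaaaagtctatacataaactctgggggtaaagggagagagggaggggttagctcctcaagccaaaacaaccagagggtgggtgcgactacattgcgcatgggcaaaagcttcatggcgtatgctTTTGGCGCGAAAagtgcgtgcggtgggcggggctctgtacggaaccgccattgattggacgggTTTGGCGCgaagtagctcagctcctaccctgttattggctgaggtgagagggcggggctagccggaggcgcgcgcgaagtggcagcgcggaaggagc
A match is a description of the letters and not a bound site. The 15 genes with a match had a median of -0.36 for their log2 fold changes (ST2fl/fl over ST2WT) and the 26 without had -0.31, so the genes in both classes lay at similar distances from 0.

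No replication gene passed the test. Of the 48 genes, 0 were called lower in ST2fl/fl cells (0.244% of all genes tested) and 0 were called higher (0.273%), where a call needed an adjusted p under 0.05 and a fold over 1.5 in limma, and at any fold the count of lower genes was also 0 (0.273%). All 48 nevertheless had a negative log2 fold change on the log2(TPM + 1) scale, which understates differences of low genes, against 48.3% of all genes tested. Their median was -0.33, a ratio of 79.8%, with quartiles of -0.42 and -0.23, whereas all genes tested had a median of 0.01 and quartiles of -0.14 and 0.16. At an unadjusted p under 0.05, 27 genes were lower (6.8% of all genes) and 0 were higher (7.11%). The list was chosen with earlier results of these data known, so these shares describe it and test nothing. In bulk RNA, fewer cells in S phase and less of each transcript per cell cannot be told apart.

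**Figure D1:**
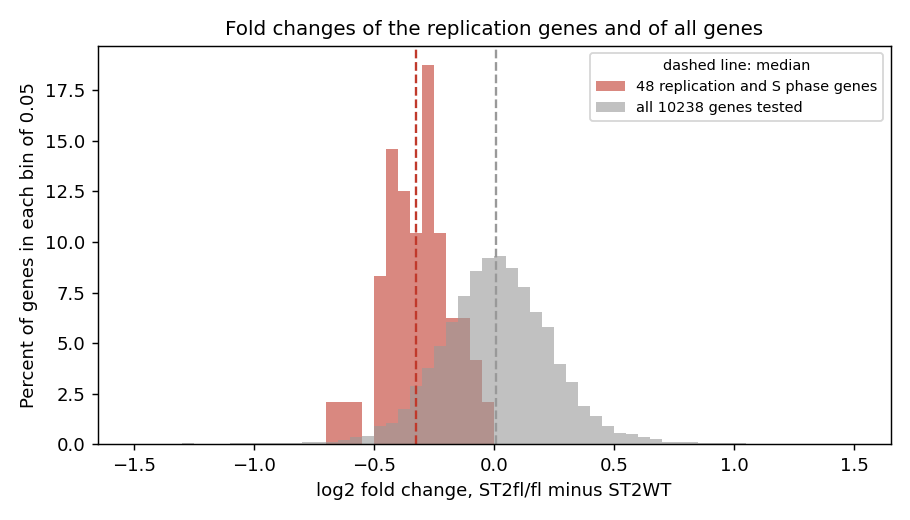
Distribution of log2 fold changes (ST2fl/fl over ST2WT, log2(TPM + 1) scale, bins of 0.05) for the 48 replication genes and for all 10238 genes tested, each as a share of its own total; 14 of the tested genes lie outside the plotted range. The replication genes all lie below 0, with a median of -0.33, beside a median of 0.01 for all genes.

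The separation of the libraries was examined gene by gene. In 15 of the 48 genes every ST2fl/fl library was below every ST2WT library (4.58% of all genes), and in 0 of them every ST2fl/fl library was above (5.45%). These 15 were Orc6, Cdc6, Mcm3, Gins1, Gins3, Pola2, Pold2, Rfc4, Rfc5, Lig1, Tyms, Tk1, Dut, Chaf1b and Ccne1. Within recipients, ST2fl/fl cells had the lower value in 4 of 4 recipients for 33 genes (14.6% of all genes). With the recipient as a replicate block in the limma model, 35 genes were lower at an unadjusted p under 0.05 (10.3% of all genes). The block gave 0 calls in either direction (0.371% of all genes lower and 0.557% higher), but 3 genes reached an adjusted p under 0.05 at a smaller fold (0.635% of all genes), namely Rfc4 with adjusted p = 0.0425, Dut with adjusted p = 0.0460 and Rrm2 with adjusted p = 0.0473.

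Individual libraries bore on these counts. The ST2WT library of recipient 2 differed from the other 7 in several respects. The SD over all genes of its log2 deviations from the means of the other libraries of its group was 0.465, against 0.242 to 0.279 elsewhere. Mitochondrially encoded transcripts took 9.18% of its TPM, against 12.7% to 13.8%. It was also the highest library for 34 of the 48 replication genes. Without it, 47 genes were lower by sign (48.3% of all genes), with Rpa2 at 0.06, and their median was -0.23. Then 24 were lower at an unadjusted p under 0.05 (7.72% of all genes), 23 of them among the 27 above, and 0 were higher (9.08%). The calls stayed at 0 (0.449% of all genes lower and 0.567% higher), 1 gene, Dut, had an adjusted p under 0.05 (0.0473; 1.01% of all genes), and 16 genes had every ST2fl/fl library below the other ST2WT libraries (6.9%), 15 of them the genes named above. The count of 27 moved more with 2 ST2fl/fl libraries, since it was 15 without the ST2fl/fl library of recipient 1 (4.79% of all genes) and 10 without that of recipient 4 (4.73%). It was 8 without both libraries of recipient 1 (3.44% of all genes) and 17 without both of recipient 4 (4.49%). The count of 15 genes without overlap became 28 without the ST2WT library of recipient 4, where fewer libraries have to separate and the share of all genes was 7.1%.

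By library, the replication genes together took 0.258%, 0.301%, 0.302% and 0.244% of all TPM in the ST2fl/fl libraries of recipients 1 to 4, against 0.337%, 0.434%, 0.331% and 0.302% in the ST2WT libraries. The sums, 2581 to 3014 TPM in ST2fl/fl cells against 3013 to 4336 TPM in ST2WT cells, touched at the ST2fl/fl library of recipient 3 and the ST2WT library of recipient 4. The median deviation of the 48 genes from their own means was -0.26, -0.05, -0.05 and -0.33 on the log2 scale in the ST2fl/fl libraries, against 0.15, 0.45, 0.07 and -0.03 in the ST2WT libraries. By this measure the groups separated narrowly, because the ST2WT cells of recipient 4 lay close to the ST2fl/fl cells of recipients 2 and 3. The lowest library was the ST2fl/fl library of recipient 4 for 30 genes and that of recipient 1 for 13 genes.

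**Figure D2:**
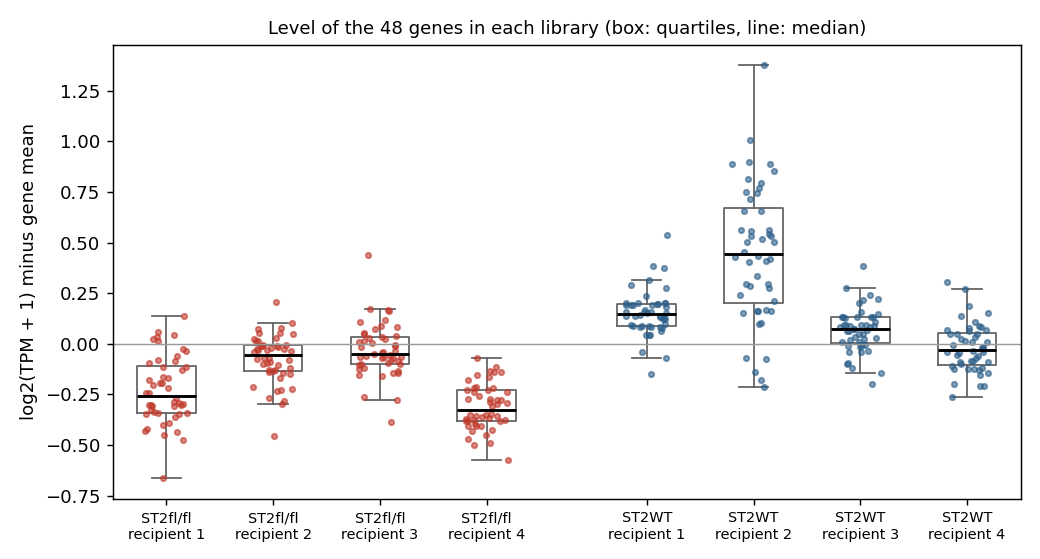
Deviation of each of the 48 replication genes from its own mean over the 8 libraries (log2(TPM + 1) scale, vertical axis), by library (horizontal axis, ST2fl/fl libraries on the left and ST2WT libraries on the right); boxes are quartiles, whiskers reach values within 1.5 box lengths. The library medians are -0.26, -0.05, -0.05 and -0.33 for ST2fl/fl and 0.15, 0.45, 0.07 and -0.03 for ST2WT.

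Within the recipients the size of the difference varied. The median ST2fl/fl minus ST2WT difference of the 48 genes was -0.38 in recipient 1, -0.47 in recipient 2, -0.09 in recipient 3 and -0.29 in recipient 4 on the log2 scale, while the medians of all genes lay between -0.02 and 0.03. The number of replication genes with the lower value in ST2fl/fl cells was 48, 44, 35 and 47 in recipients 1 to 4. Of all genes tested, 50.1%, 51.1%, 44.8% and 47.2% were lower in the same recipients. Recipient 3 thus held the smallest difference, and the largest one was in the recipient whose ST2WT library stood apart.

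**Figure D3:**
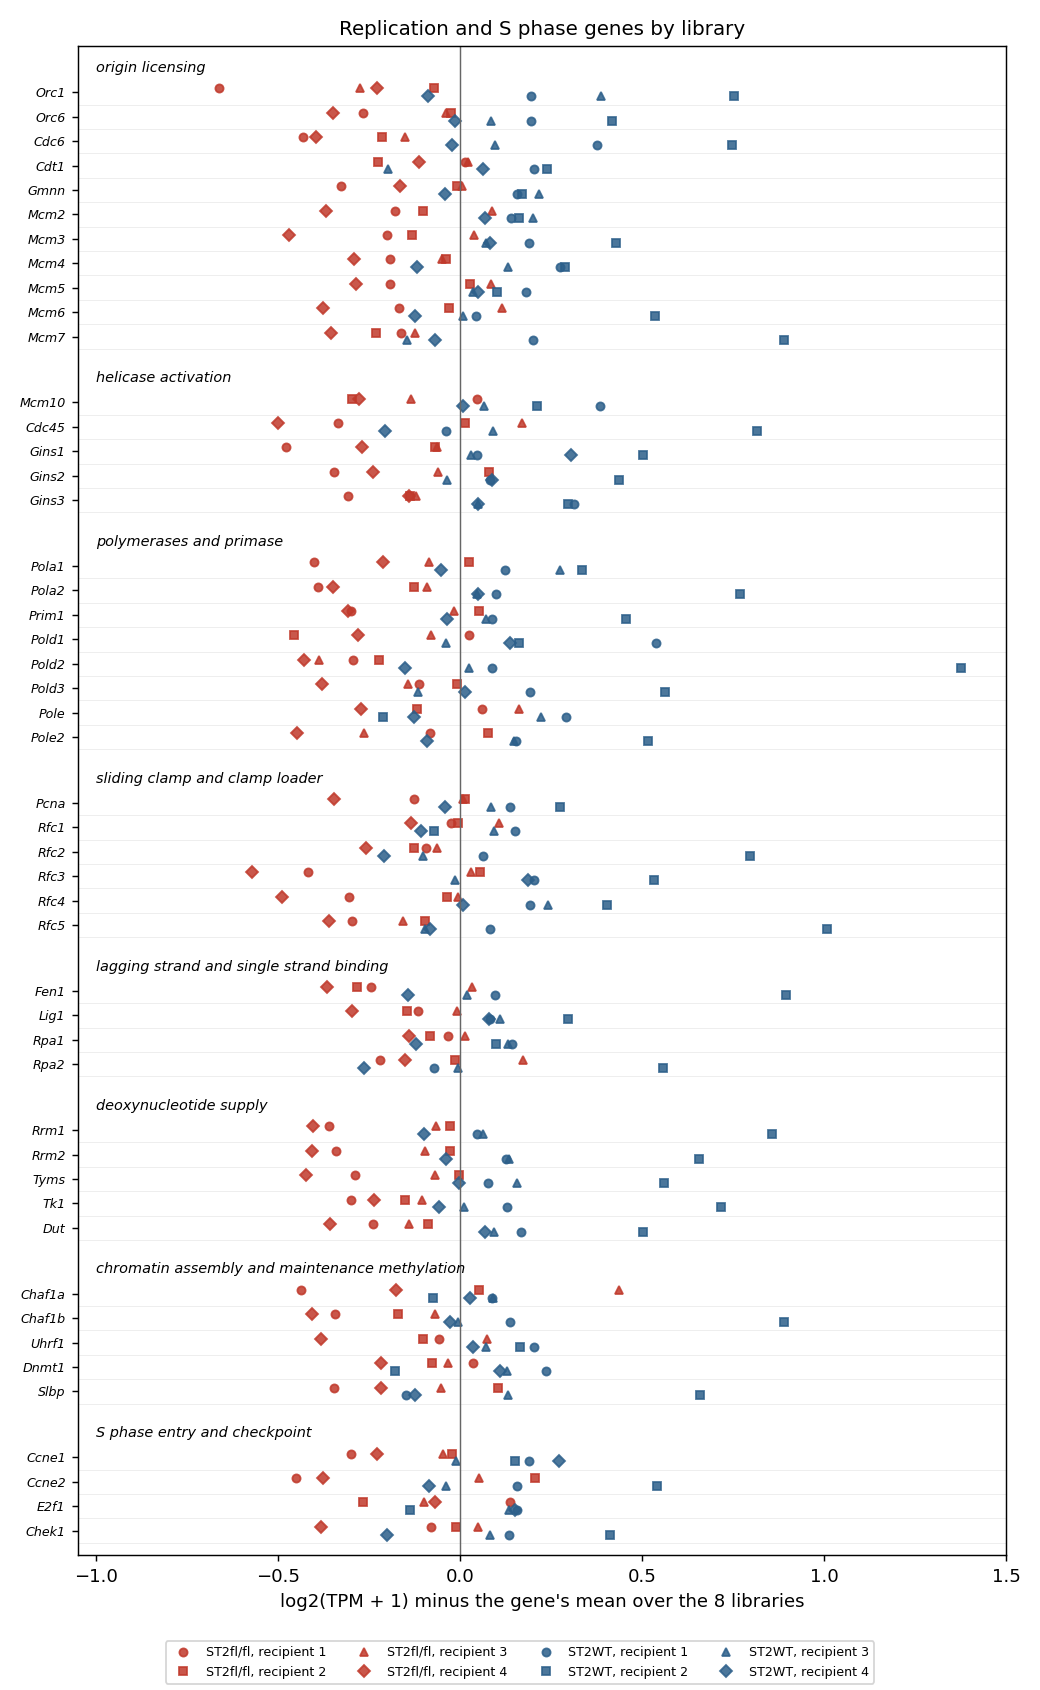
Log2(TPM + 1) of each of the 48 replication genes as its deviation from the gene mean (horizontal axis), 1 row per gene grouped by role. Each row has 4 ST2fl/fl and 4 ST2WT points, with colour for the genotype and marker shape for the recipient. In 15 rows, such as Dut and Cdc6, all ST2fl/fl points lie left of all ST2WT points; in Pold2 the ST2WT point of recipient 2 lies far to the right.

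Mean levels over all 8 libraries spanned 2.50 TPM for E2f1 to 435 TPM for Rrm2, with 7 genes under 10 TPM and 6 over 100 TPM. The log2 fold changes of the 11 licensing genes had a median of -0.29, and 8 of them were lower at an unadjusted p under 0.05. Beside this and each later count by role, 6.8% of all genes tested were lower at that p. The share was 7.72% without the ST2WT library of recipient 2. The licensing genes then had a median of -0.24, with 7 lower at that p. Cdc6, the ATPase that brings MCM to origins, had 9.27, 10.9, 11.5 and 9.53 TPM in the ST2fl/fl libraries of recipients 1 to 4, against 17.0, 22.3, 13.8 and 12.7 TPM in the ST2WT libraries (log2 fold change -0.60 ± 0.17 SE, limma adjusted p = 0.158). Orc1, the largest subunit of the origin recognition complex, had 3.16, 5.28, 4.45 and 4.63 TPM in ST2fl/fl cells, against 6.55, 10.1, 7.62 and 5.20 TPM in ST2WT cells (log2 fold change -0.62 ± 0.19 SE, limma adjusted p = 0.202). All ST2fl/fl values of Cdc6 lay below all ST2WT values, whereas in Orc1 the ST2fl/fl library of recipient 2 was above the ST2WT library of recipient 4. Orc6, a small subunit of the same complex, had 74.1, 87.9, 87.1 and 70.0 TPM in ST2fl/fl cells, against 103, 119.8, 94.95 and 88.6 TPM in ST2WT cells (log2 fold change -0.34 ± 0.12 SE, limma adjusted p = 0.248), and its groups did not overlap.

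Among the MCM helicase subunits, Mcm3 had 57.5, 60.4, 68.1 and 47.6 TPM in the ST2fl/fl libraries of recipients 1 to 4, against 75.7, 89.5, 69.7 and 70.2 TPM in the ST2WT libraries (log2 fold change -0.38 ± 0.12 SE, limma adjusted p = 0.226). The groups of Mcm3 came close, with the ST2fl/fl library of recipient 3 just under the ST2WT library of the same recipient. The other subunits had log2 fold changes of -0.28 (Mcm2), -0.29 (Mcm4), -0.18 (Mcm5), -0.23 (Mcm6) and -0.44 (Mcm7), at mean levels of 43.7 to 97.8 TPM over the 6 subunits. Of these, Mcm2, Mcm4 and Mcm7 were at an unadjusted p under 0.05 and Mcm5 and Mcm6 were not. Without the ST2WT library of recipient 2, where Mcm7 had 78.9 TPM, its log2 fold change was -0.21 (limma unadjusted p = 0.0522). Gmnn, geminin, which binds Cdt1 and blocks a second round of licensing, was among the most abundant with 207, 258, 261 and 232 TPM in ST2fl/fl cells, against 289.7, 292, 302 and 253 TPM in ST2WT cells (log2 fold change -0.25 ± 0.09 SE, limma adjusted p = 0.287). Its ST2fl/fl values overlapped the lowest ST2WT value, that of recipient 4. Cdt1, the partner of Cdc6 in loading MCM, had a log2 fold change of -0.15 (SE 0.12).

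The 5 genes of helicase activation had a median of -0.33, with 3 at an unadjusted p under 0.05. Gins1, a subunit of the GINS complex, had 20.0, 26.9, 27.0 and 23.2 TPM in the ST2fl/fl libraries of recipients 1 to 4, against 29.2, 40.4, 28.8 and 35.1 TPM in the ST2WT libraries (log2 fold change -0.44 ± 0.14 SE, limma adjusted p = 0.215). Gins3, another subunit, had 7.87, 8.99, 9.10 and 8.96 TPM in ST2fl/fl cells, against 12.7, 12.5, 10.4 and 10.4 TPM in ST2WT cells (log2 fold change -0.35 ± 0.11 SE, limma adjusted p = 0.220). Neither gene had overlapping groups. Mcm10, which helps to start the loaded helicase, was a low gene with 3.57, 2.60, 3.03 and 2.65 TPM in ST2fl/fl cells, against 4.78, 4.13, 3.63 and 3.45 TPM in ST2WT cells (log2 fold change -0.33 ± 0.14 SE, limma adjusted p = 0.313), and its groups overlapped at the ST2fl/fl library of recipient 1. Gins2 had -0.28 and Cdc45, the helicase cofactor, had -0.33; neither was at an unadjusted p under 0.05.

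The 8 polymerase and primase genes had a median of -0.35, with 5 at an unadjusted p under 0.05. Pola2, the B subunit of the polymerase alpha-primase complex that lays down primers, had 13.8, 16.7, 17.2 and 14.2 TPM in the ST2fl/fl libraries of recipients 1 to 4, against 19.8, 32.0, 19.0 and 19.0 TPM in the ST2WT libraries (log2 fold change -0.48 ± 0.17 SE, limma adjusted p = 0.256). Its groups did not overlap, and the ST2WT value of recipient 2 was far above the other 3 ST2WT values. Pola1, the catalytic subunit, and Prim1, the primase, had log2 fold changes of -0.34 and -0.29.

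Pold2, an accessory subunit of the lagging strand polymerase delta, had the largest fold change of the 48 genes and is described here after its values were seen. It had 21.3, 22.4, 19.9 and 19.3 TPM in ST2fl/fl cells, against 28.1, 70.0, 26.8 and 23.6 TPM in ST2WT cells (log2 fold change -0.67 ± 0.28 SE, limma adjusted p = 0.327). Its groups did not overlap, but the log2 fold change was -0.32 without the ST2WT library of recipient 2. The other polymerase delta genes had -0.40 (Pold1, catalytic) and -0.32 (Pold3). Pole, the catalytic subunit of the leading strand polymerase epsilon, was a low gene with 5.36, 4.62, 5.83 and 4.05 TPM in ST2fl/fl cells, against 6.46, 4.27, 6.11 and 4.59 TPM in ST2WT cells (log2 fold change -0.09 ± 0.15 SE, limma adjusted p = 0.816). Its groups overlapped, while Pole2, its partner subunit, had a log2 fold change of -0.36 (SE 0.15). Levels differed within complexes, with means of 6.55 TPM for Pold1, 28.9 TPM for Pold2 and 16.3 TPM for Pold3, and of 5.16 TPM for Pole against 36.5 TPM for Pole2.

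The sliding clamp and its loader, 6 genes, had a median of -0.35, with 3 at an unadjusted p under 0.05, and without the ST2WT library of recipient 2 a median of -0.18 with 2. Pcna, the ring that tethers the polymerases to DNA, had 304, 335, 333 and 261 TPM in the ST2fl/fl libraries of recipients 1 to 4, against 365, 402, 352 and 322 TPM in the ST2WT libraries (log2 fold change -0.23 ± 0.10 SE, limma adjusted p = 0.345). Its groups overlapped, since the ST2fl/fl libraries of recipients 2 and 3 were above the ST2WT library of recipient 4. Rfc4, a subunit of the clamp loader, had 144, 174, 178 and 127 TPM in ST2fl/fl cells, against 204, 237, 212 and 179.7 TPM in ST2WT cells (log2 fold change -0.42 ± 0.12 SE, limma adjusted p = 0.189), with no overlap by a narrow margin. Rfc3, another loader subunit, had 24.3, 34.1, 33.5 and 21.7 TPM in ST2fl/fl cells, against 37.9, 47.95, 32.5 and 37.5 TPM in ST2WT cells (log2 fold change -0.45 ± 0.17 SE, limma adjusted p = 0.274). In Rfc3 the ST2fl/fl libraries of recipients 2 and 3 overlapped the ST2WT library of recipient 3. The remaining loader genes had log2 fold changes of -0.03 (Rfc1, the large subunit), -0.27 (Rfc2) and -0.46 (Rfc5), and without that library Rfc2 had -0.05 and Rfc5 -0.20. The 5 loader subunits spanned mean levels of 21.9 TPM for Rfc1 to 182 TPM for Rfc4.

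Of the 4 genes for lagging strand joining and single-stranded DNA binding, with a median of -0.20, only Lig1 was at an unadjusted p under 0.05. Lig1, the ligase that seals Okazaki fragments, had 29.9, 29.2, 32.2 and 26.2 TPM in the ST2fl/fl libraries of recipients 1 to 4, against 34.4, 40.1, 35.1 and 34.4 TPM in the ST2WT libraries (log2 fold change -0.28 ± 0.10 SE, limma adjusted p = 0.259), and its groups did not overlap. Fen1, the nuclease that trims their flaps, had a log2 fold change of -0.43 (SE 0.20), and the single-strand binding subunits Rpa1 and Rpa2 had -0.12 and -0.11. The large subunit of the clamp loader, Rfc1, and the genes Chaf1a, Pole, Rpa2 and Rpa1 had the 5 smallest differences of the 48 genes.

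Of the 5 genes of deoxynucleotide supply, 5 were lower at an unadjusted p under 0.05, with a median of -0.41. Without the ST2WT library of recipient 2 the count was 4, Rrm1 being the gene that no longer passed, and the median was -0.27. Dut, the dUTPase that keeps uracil out of DNA and provides the dUMP for thymidylate, had 216, 239.8, 231 and 199 TPM in the ST2fl/fl libraries of recipients 1 to 4, against 287, 362, 272 and 267 TPM in the ST2WT libraries (log2 fold change -0.41 ± 0.11 SE, limma adjusted p = 0.134). Its adjusted p was the smallest of the 48 genes, and the highest ST2fl/fl value lay below the lowest ST2WT value. Rrm2, the ribonucleotide reductase subunit made in S phase and the most abundant of the 48 genes, had 335, 416, 397 and 319.9 TPM in ST2fl/fl cells, against 463, 669.5, 467 and 414 TPM in ST2WT cells (log2 fold change -0.44 ± 0.14 SE, limma adjusted p = 0.229). Its groups touched, with the ST2fl/fl library of recipient 2 just above the ST2WT library of recipient 4. Tyms, thymidylate synthase, had 67.7, 82.7, 79.1 and 61.6 TPM in ST2fl/fl cells, against 87.6, 123, 92.6 and 82.8 TPM in ST2WT cells (log2 fold change -0.39 ± 0.14 SE, limma adjusted p = 0.258), and the groups did not overlap, although the ST2fl/fl value of recipient 2 was within 1 TPM of the ST2WT value of recipient 4. Rrm1, the large reductase subunit, and Tk1, thymidine kinase, had log2 fold changes of -0.43 and -0.40.

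The 5 genes of chromatin assembly and maintenance methylation had a median of -0.24, with 1 at an unadjusted p under 0.05. That gene was Chaf1b, a subunit of the chromatin assembly factor CAF-1, at -0.50 (SE 0.19), while its partner subunit Chaf1a had -0.06. Uhrf1, which recruits the maintenance methyltransferase to new DNA, had -0.24, Dnmt1, that methyltransferase, had -0.15, and Slbp, which binds histone mRNA, had -0.26. The 4 genes of S phase entry and checkpoint had a median of -0.25, again with 1 at an unadjusted p under 0.05. Ccne1, the cyclin E1 that starts S phase with Cdk2, had 23.1, 28.3, 27.8 and 24.4 TPM in the ST2fl/fl libraries of recipients 1 to 4, against 32.9, 32.0, 28.5 and 34.9 TPM in the ST2WT libraries (log2 fold change -0.30 ± 0.11 SE, limma adjusted p = 0.263). Its groups did not overlap, by a margin under 1 TPM. E2f1, the transcription factor, had the lowest mean level of the 48 genes with 2.82, 1.89, 2.24 and 2.31 TPM in ST2fl/fl cells, against 2.88, 2.16, 2.82 and 2.86 TPM in ST2WT cells (log2 fold change -0.15 ± 0.13 SE, limma adjusted p = 0.607), and its groups overlapped. Ccne2 and the checkpoint kinase gene Chek1 had log2 fold changes of -0.29 and -0.21.

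**Figure D4:**
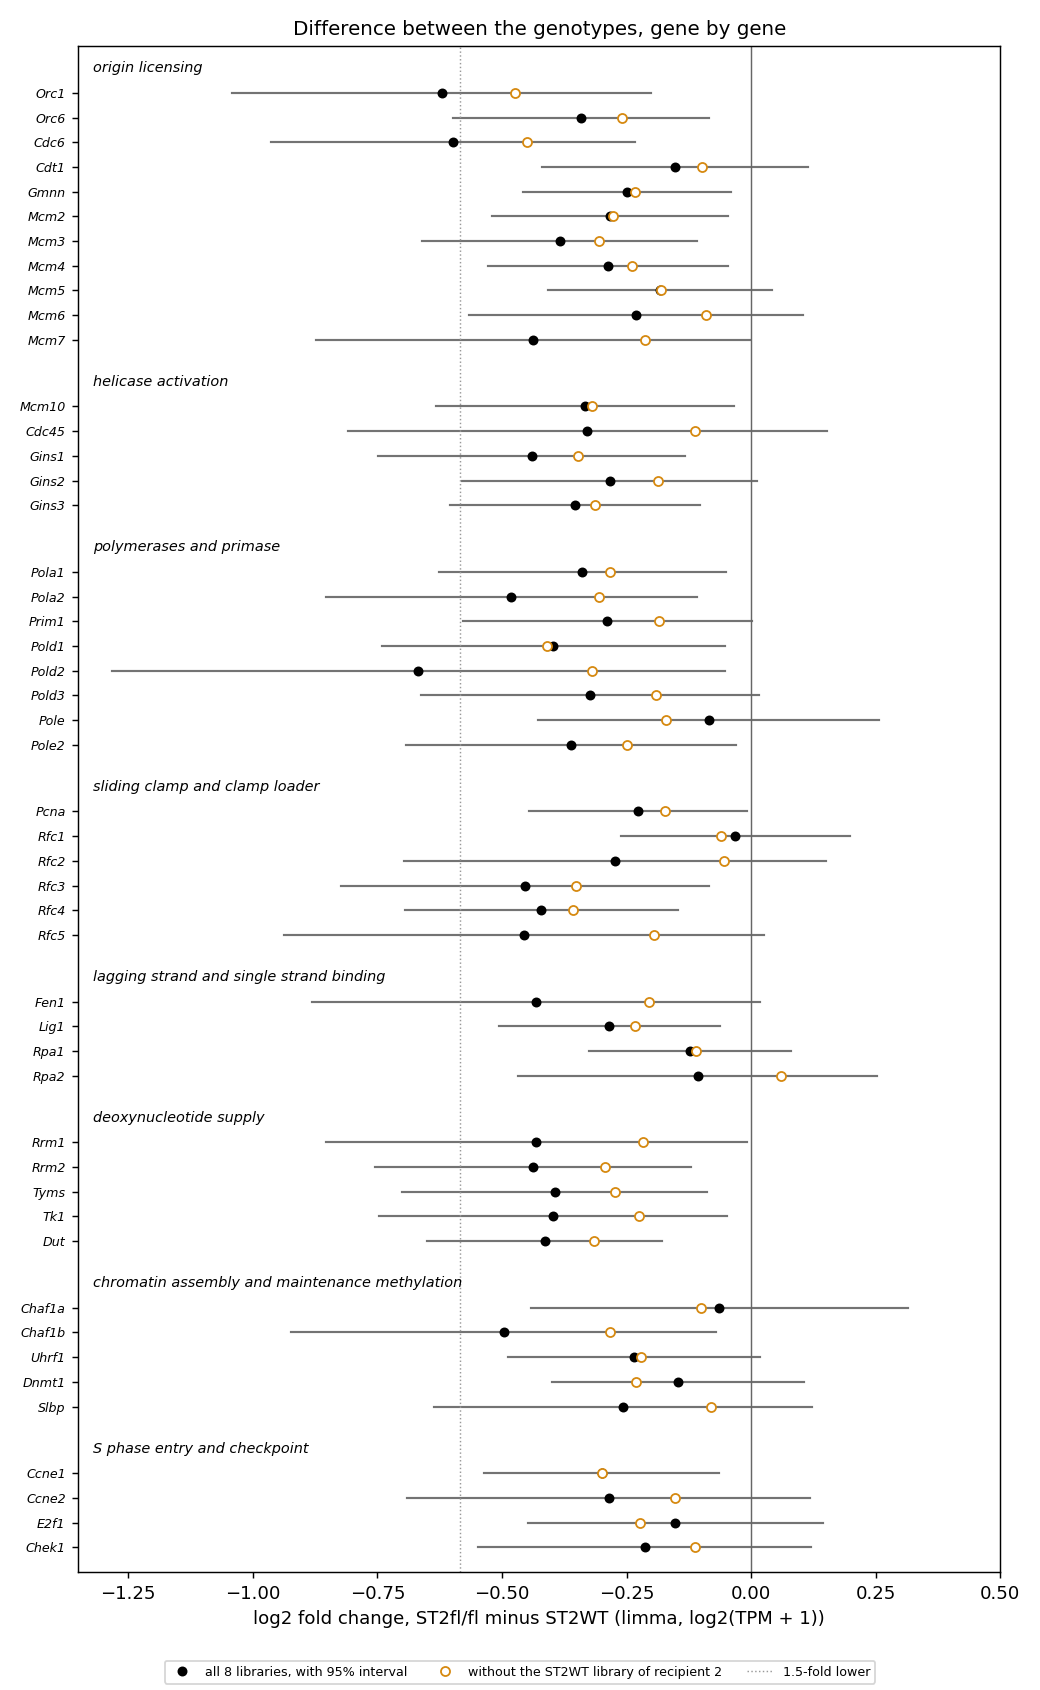
Log2 fold change (ST2fl/fl over ST2WT, log2(TPM + 1) scale, horizontal axis) with its 95% interval from limma for each of the 48 replication genes, grouped by role, with the value without the ST2WT library of recipient 2 as a second marker. All 48 estimates are below 0 and 27 intervals exclude 0 without adjustment; Rpa2 crosses to 0.06 without that library.

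The ST2WT library of recipient 2 was not evenly high over the 48 genes. Relative to the mean of the other 3 ST2WT libraries, it held 2.68 times as much Pold2, 2.09 times as much Rfc5, 1.90 times as much Fen1 and 1.87 times as much Mcm7. It held less Dnmt1 (0.784 times), E2f1 (0.758 times) and Pole (0.747 times). In all, 14 genes were over 1.5 times and 7 were below 1. These ratios went with transcript length: their median was 1.34 for the 14 replication genes with transcripts under 2000 bases, 1.34 for the 24 genes of 2000 to 4000 bases and 1.04 for the 10 longer genes, against 1.12, 1.06 and 0.798 for all tested genes of those lengths. Across 9942 genes, which are not independent replicates, the deviation in that library correlated with log2 transcript length at a Pearson r of -0.251. The log2 fold changes between the genotypes also went with length, at an r of 0.189 over these genes and 0.363 over the 48 replication genes. Without that library the values were 0.085 and 0.19. Removing a smooth trend on length from each library, a step chosen after seeing the data, left a median of -0.32 and 30 genes at an unadjusted p under 0.05 (7.37% of all genes), with 0 calls. Without the library, 42 of the 48 fold changes were smaller in size, 19 of them by over 1.5 times.

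**Figure D5:**
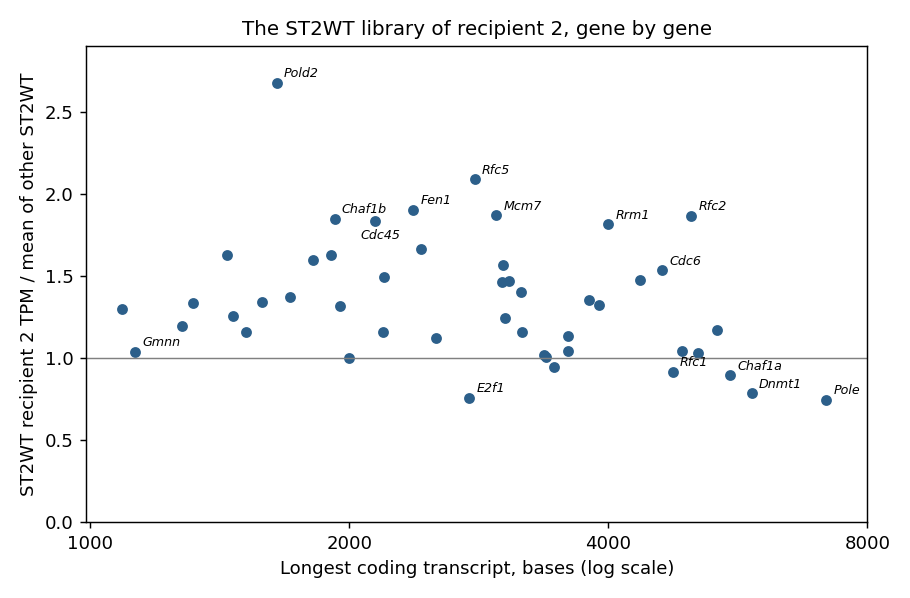
Level of each of the 48 replication genes in the ST2WT library of recipient 2 over the mean of the other 3 ST2WT libraries (vertical axis, linear scale). The horizontal axis is transcript length in bases (log scale), with 1 point per gene. Pold2 lies highest at 2.68 and Pole lowest at 0.747, and 7 genes lie below 1.

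Neighbouring lists of genes showed where the pattern extended. For comparison, 48.3% of all genes tested were lower by sign. At an unadjusted p under 0.05, 6.8% of all genes were lower and 7.11% higher, and 0.244% and 0.273% were called. Of 38 tested genes for other fork and origin proteins, 33 were lower and 5 higher by sign, 9 lower and 1 higher at an unadjusted p under 0.05, and 0 were called, with a median of -0.19. Rpa3, the small subunit of the single-strand binding complex, had a log2 fold change of -0.29 (adjusted p = 0.203 from limma), and Mtbp, which helps origins to fire, had -0.40 (adjusted p = 0.229). Recql4 was listed but below the filter.

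Among 29 genes for other enzymes of nucleotide synthesis, 25 were lower and 4 higher by sign, 12 lower and 1 higher at an unadjusted p under 0.05, and 0 were called, with a median of -0.29. The replicate block gave 1 call (0.371% of all genes lower), Mthfd1, an enzyme of folate metabolism (log2 fold change -0.60, adjusted p = 0.0338 from limma). Dctpp1, a pyrophosphatase that clears dCTP, averaged 339.6 ± 13.5 TPM in ST2fl/fl cells and 420.2 ± 29.8 TPM in ST2WT cells (SD, n = 4 each), with adjusted p = 0.106. Dtymk, thymidylate kinase, averaged 66.1 ± 3.17 TPM in ST2fl/fl cells and 82.2 ± 4.41 TPM in ST2WT cells (SD, n = 4 each), with adjusted p = 0.144. Samhd1, which breaks deoxynucleotides down, lay in the other direction at 81.1 ± 5.68 TPM in ST2fl/fl cells and 61.2 ± 6.94 TPM in ST2WT cells (SD, n = 4 each) (log2 fold change 0.40, adjusted p = 0.121), and every ST2fl/fl library was above every ST2WT library. Without the ST2WT library of recipient 2 its adjusted p was 0.0133.

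The 27 tested genes of G1 to S control were divided, with 15 lower and 12 higher by sign, 2 lower and 3 higher at an unadjusted p under 0.05, 0 called, and a median of -0.07; Ccnd1 was under the filter. Ccnd2, cyclin D2, which drives G1 with Cdk4 and Cdk6, averaged 42.4 ± 2.31 TPM in ST2fl/fl cells and 31.2 ± 3.09 TPM in ST2WT cells (SD, n = 4 each) (log2 fold change 0.43, adjusted p = 0.103 from limma). Cdkn2c, the inhibitor p18 of the same kinases, averaged 21.9 ± 0.791 TPM in ST2fl/fl cells and 16.5 ± 1.02 TPM in ST2WT cells (SD, n = 4 each) (log2 fold change 0.39, adjusted p = 0.111). Both genes had every ST2fl/fl library above every ST2WT library, and without the ST2WT library of recipient 2 their adjusted p-values were 0.0245 and 0.0471. Cks1b, a cofactor of cyclin-dependent kinases, averaged 761 ± 37.4 TPM in ST2fl/fl cells and 914 ± 109 TPM in ST2WT cells (SD, n = 4 each) (adjusted p = 0.229).

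Of 30 genes of mitosis, 29 were lower by sign, 7 were lower and 0 higher at an unadjusted p under 0.05, and 0 were called, with a median of -0.19; Cenpf was the gene that was not lower. Plk1, the polo kinase of mitotic entry, averaged 72.0 ± 5.005 TPM in ST2fl/fl cells and 93.7 ± 9.86 TPM in ST2WT cells (SD, n = 4 each) (log2 fold change -0.37, adjusted p = 0.140 from limma). Kif11, a spindle motor, had -0.27 (adjusted p = 0.259) and Ccnb2, a mitotic cyclin, had -0.31 (adjusted p = 0.270). Without the ST2WT library of recipient 2 the medians were -0.15 for fork and origin genes, -0.19 for nucleotide synthesis, -0.06 for G1 to S control and -0.11 for mitosis, each nearer 0, and 0 genes of these lists were called.

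Markers of cell identity were set beside these values. The 10 T cell markers summed to 15755 to 15891 TPM in ST2fl/fl libraries and 13542 to 14562 TPM in ST2WT libraries without overlap, and 9 of 10 were higher by sign, with 0 called. Cd3g, a chain of the CD3 complex, reached an adjusted p of 0.0106 in limma at a log2 fold change of 0.33, with every ST2fl/fl library above every ST2WT library. Of 12 B and plasma cell markers, 7 were listed, at a sum of 280.1 to 342 TPM in ST2fl/fl libraries and 330.1 to 344 TPM in ST2WT libraries, and Cd79a, Ms4a1, Ebf1 and Jchain were among those not listed. Some of the listed B cell genes separated without overlap, in both directions: Cd79b, of the B cell receptor, had a log2 fold change of -0.60 (limma adjusted p = 0.121), Ighm, the IgM heavy chain, -0.32 (adjusted p = 0.196), and Cd74, the invariant chain of MHC class II, 0.65 (adjusted p = 0.0727). The groups of Igkc (log2 fold change 0.50) and H2-Ab1 (-0.10) overlapped, and Pax5 and H2-Aa were below the filter. Cd74 was called with the replicate block (adjusted p = 0.0407) and without the ST2WT library of recipient 2 (adjusted p = 0.0386). A gene is listed only where it is above 0 in every library, so the genes not listed were at 0 in at least 1 of them or were left out for another reason. Of 5 NK cell markers, 4 were listed at 1116 to 1722 TPM in ST2fl/fl libraries and 778 to 1311 TPM in ST2WT libraries, mostly from the cytotoxic granule gene Gzma, and Ncr1 was not listed. By sign 2 of these genes were higher, Gzma (log2 fold change 0.44) and Klrk1 (0.34). The other 2 were lower, Klre1 (-0.78) and Klrb1c (-0.26), so the sum does not stand for each gene. Of 10 myeloid markers, 3 were listed at 29.9 to 46.6 TPM in ST2fl/fl libraries and 19.2 to 35.2 TPM in ST2WT libraries, and Lyz2, Csf1r and Itgam were among those not listed. Of 13 erythroid and progenitor markers, which stand for other dividing cells, 4 were listed at 11.6 to 18.1 TPM in ST2fl/fl libraries and 14.6 to 19.2 TPM in ST2WT libraries, and Klf1 and Kit were among those not listed. Of the CD8 pair, Cd8a was not listed and Cd8b1 had 10.5 to 14.2 TPM in ST2fl/fl libraries and 12.4 to 13.5 TPM in ST2WT libraries. The part of these markers in the difference of the replication genes was not tested.

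The targeted gene Il1rl1 had 15.8, 14.9, 16.7 and 17.7 TPM in the ST2fl/fl libraries of recipients 1 to 4, against 18.6, 14.6, 21.3 and 18.2 TPM in the ST2WT libraries (log2 fold change -0.14 ± 0.12 SE, limma adjusted p = 0.608), and its groups overlapped. Without the ST2WT library of recipient 2 its log2 fold change was -0.24 (adjusted p = 0.224), with every ST2fl/fl value below the other 3 ST2WT values, and without the ST2WT library of recipient 3 it was -0.0647 (adjusted p = 0.821). Because exons outside the deleted part can still be counted, this level checks no label. On chromosome 1 of GRCm38, Mcm6, at chr1:128331590-128359664, lies 9.7 Mb from Ptprc, the CD45 gene by whose alleles the donors were told apart, and Mcm3, at chr1:20802968-20820312, lies 19.6 Mb from Il1rl1, and what alleles carried along at these loci add was not tested. Exons of 17 of the 48 genes overlap another annotated gene, 15 of them on the other strand, with Fen1 (2039 bases), Gins2 (2758 bases) and Chaf1a (4648 bases) among those with long overlaps. The counting strand is not given in the sources used here, so within the shared bases reads of these genes and of their neighbours cannot be told apart. Some overlaps are short, such as 44 bases in Rpa1. Pcna and Tyms also have annotated pseudogenes that carry their names, and their levels are uncertain to that extent. Pseudogenes of the 48 genes under other names were not searched for.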

How the data were processed

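RNA was sequenced from sorted donor CD4+ T cells, 4 ST2fl/fl and 4 ST2WT libraries (SMART-Seq low-input amplification, Nextera XT, NextSeq500). The authors mapped reads to GRCm38.p6 in CLC Genomics Workbench 20.0.3 and deposited 1 TPM value per gene and library. Since TPM hold no read totals, the precision that depth gives to each library is unknown and no interval for counting error is printed. With 0 rows at 0 in any library, a gene at 0 in 1 library is not in the table. No pair of libraries was identical. The strand setting of the counting is not given in the sources used here.

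The 10238 of 12417 genes that averaged 1 TPM or more (2179 left out) were compared as log2(TPM + 1), ST2fl/fl minus ST2WT, with limma 3.58.1 in R 4.3.3 with a variance trend, 2-sided moderated tests and Benjamini-Hochberg adjustment over all genes tested. A call needed an adjusted p under 0.05 and a fold over 1.5, the limits the study used. The test was tried on simulated data first. The members and all lists were chosen with earlier results of these data known, and no set was tested. Values per library are given for the 14 members with the smallest p, the 4 with the highest and the 3 with the lowest mean, and for any member that was higher (there was none), and up to 3 genes are named per pathway list. Some genes of the lists are not reported here by name.

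Libraries with the same number were taken to share a recipient. The study's methods state that both populations were transferred together, but the labels give only the number. Deviations of same-numbered libraries from their group means correlated at 0.195, 0.352, 0.118 and 0.163 in recipients 1 to 4, and those of other pairs at -0.283 to 0.109. Each group was centred on its own mean, so positive values for same-numbered libraries pull those of the other pairs down. The contrast is thus no test of the pairing. A fit with the replicate number as a block was run beside the fit without it. The other alternatives were other pseudocounts and filters, other scalings, array weights, leaving out each library or recipient, and 2 fits without a length trend that were chosen after seeing the data. Gene positions and lengths are from GENCODE M21 (9942 of 10238 symbols matched 1 gene) and promoter windows from RefSeq. Figures were drawn with matplotlib 3.10.9.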

Additional observations from a re-analysis of the deposited data

Results flagged for a closer look

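In 100 groups of 4 libraries (the 48 genes, the list sum and Il1rl1, each in both genotypes), 9 had a single library far from the other 3 by Dixon's criterion, where chance gives about 5% of groups. Of the 9, 7 were high values in the ST2WT library of recipient 2. There Pold2 had 70.0 TPM (other ST2WT libraries 23.6 to 28.1 TPM), Rfc5 67.7 TPM (30.9 to 35.1 TPM), Fen1 51.0 TPM (24.3 to 28.9 TPM), Rrm1 166 TPM (84.9 to 95.1 TPM), Chaf1b 35.6 TPM (18.4 to 20.7 TPM), Pola2 32.0 TPM (19.0 to 19.8 TPM) and Lig1 40.1 TPM (34.4 to 35.1 TPM). In the same library E2f1 was low at 2.16 TPM (2.82 to 2.88 TPM). In ST2fl/fl cells, Gins3 was low in recipient 1 at 7.87 TPM (8.96 to 9.10 TPM in the other ST2fl/fl libraries). The cause of these values was not tested.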

How the results depend on the processing

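Over all other settings, including 2 chosen after seeing the data, 0 of the 48 genes were called, 46 to 48 were lower by sign (46 of 46 tested at a mean of 5 TPM), and their median log2 fold change lay between -0.39 and -0.23. The number lower at an unadjusted p under 0.05 was 8 to 29 when libraries were left out (8 without recipient 1, 3.44% of all genes; 10 without ST2fl/fl 4; 15 without ST2fl/fl 1; 17 without recipient 4), and 24 to 40 under the other settings. The number without overlap was 15 to 28 when libraries were left out, and was 28 without the ST2WT library of recipient 4 (7.1% of all genes) or both libraries of that recipient (8.42%), against 4.58% of all genes with 8 libraries. With the replicate block, 35 genes were lower at an unadjusted p under 0.05, and 40 (11% of all genes) with the block and the length trend removed together. The block changed no other call of the 48 genes.

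Of the fold changes of single genes, 1142 kept their direction and their side of the threshold and 8 changed sign, all within 0.09 of 0. Rpa2 was 0.0482 with array weights, 0.0601 without ST2WT 2 and 0.0467 without recipient 2, and lay between -0.21 and 0.06 over all left-out libraries. Chaf1a was 0.0713 without ST2fl/fl 1 and 0.0896 without recipient 1 (range -0.22 to 0.09). Rfc1 was 0.0081 without ST2fl/fl 4, 0.0135 without ST2WT 1 and 0.0171 without recipient 1 (range -0.0725 to 0.0171). The cause was not tested. Over all genes, 25 were called lower and 28 higher, against 38 and 57 with the block, 46 and 58 without the ST2WT library of recipient 2, 56 and 74 with array weights, and 5 and 4 without recipient 1. TPM keep no depth, so what depth limits cannot be stated, and 4 libraries a group limit the precision of each value.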
